A study of Salmo salar with 34 samples.

Results

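The comparison of high with low organic minerals (OM) in female Atlantic salmon (Salmo salar) took its members from the sample labels, which give 3 females at the high level and 6 at the low level, 9 of the 34 arrays of the series. Each array held midgut RNA of 1 fish after 12 weeks of feeding. By the paper, the fish were stressed by weekly handling in 3 of these weeks, after 6 weeks on the diets. Oxygen saturation was kept lower in all tanks over the last 3 weeks. The high OM females carry the fish numbers 3, 4 and 5 and the low OM females the numbers 1 to 6. The fish were post smolts in seawater that received diets with organic or inorganic (IM) premixes of copper, iron, manganese, selenium and zinc, and both groups compared here had the organic premix. No strain, age in days or genetic change is given. The labels leave unsaid which of the numbered diets the words high and low stand for. Tanks did not enter the fits, so any tank mates were taken as independent, and p-values measure only the spread between these fish.

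Trace minerals serve as cofactors of many enzymes. Copper and zinc are held by superoxide dismutase and by metallothioneins, iron by haem proteins and ferritin, manganese by mitochondrial superoxide dismutase, and selenium by glutathione peroxidases. The intestine is where dietary minerals are taken up and where much of the control of iron and zinc uptake takes place. In organic premixes the metal is bound to a carrier such as an amino acid or peptide, while inorganic premixes hold salts.

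The files give probe identifiers without gene names, and none of the 14841 identifiers matched the salmon gene table used as reference (0 matches), so the results are per probe and the tissue could not be checked against marker genes. All values below are log2 signals relative to the 75th percentile of their own array, with 0 meaning a probe as bright as that percentile. A probe was tested if it was well above background, by the scanner software's own mark, on at least 3 of the 9 arrays, which 11886 probes were. Of these, 8552 were well above background on all 9 arrays.

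High OM females showed more midgut probes with higher than with lower signal. By the criteria for a differentially expressed gene (DEG) in this study, a log2 fold change beyond 0.81 in either direction with limma p under 0.05 before adjustment, 2404 of the 11886 probes differed (20.2%), 2132 of them higher (17.9%) and 272 lower (2.29%) at high OM. After Benjamini-Hochberg adjustment of the limma p over all probes, 1450 passed 0.05 (12.2%), 1429 higher (12.0%) and 21 lower (0.177%). Of the 1429, 309 were well above background on all 3 high OM arrays and no low OM array. Those 309 passed the filter only through the high OM group. Any called probe seen on all 3 high OM and on 1 or 2 low OM arrays also needed the high OM arrays to pass. In all, 852 tested probes (7.17%) were seen on all 3 high OM and at most 2 low OM arrays, and the number called was not counted. Over all probes tested the median log2 fold change was 0.05, and 53.5% of the fold changes were above 0. In bulk tissue, fewer cells of a type and less RNA per cell cannot be told apart.

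The excess of higher signal depended on the scaling of the arrays. When each array was scaled by its median in place of its 75th percentile, 1147 probes were higher and 281 lower after adjustment, with a median log2 fold change over all probes of -0.35. Quantile normalization gave 1016 higher and 322 lower, with a median of -0.12. The normexp correction of the background, under which dim spots differ less, left 237 higher and 2 lower. By the DEG criteria the split was closer to even under these scalings, with 1661 higher and 1536 lower under median scaling and 1519 higher and 1220 lower after quantile normalization. The direction and call of 211 higher probes held under the 75th percentile, the median, normexp, quantile normalization and the authors' processed values alike, and that of 0 lower probes. Of those 211, 153 were well above background on all 9 arrays.

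The 1429 probes called higher were mostly dim in low OM females. Their median log2 fold change was 2.46, with quartiles of 1.88 and 3.12 and a range of 0.86 to 7.93, and 409 of them exceeded 3 on the log2 scale. The median probe of the list lay at -2.29 in high OM females and at -4.92 in low OM females. The scanner software does not let the processed signal go below a lowest value per array, and at 448 of these probes 1 to 5 of the low OM females sat at that value and at 22 all 6 did, so the fold changes of these probes have no firm size. The 959 probes with no low OM female at the lowest value had a median log2 fold change of 2.17. The 452 probes well above background on every one of the 9 arrays had a median of 1.96.

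The 21 probes called lower had smaller changes. Their median log2 fold change was -1.12 and ranged from -4.53 to -0.79. In contrast to the probes called higher, 16 of the 21 were well above background on all 9 arrays, and their median level was -1.08 at high OM and 0.31 at low OM.

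**Figure D1:**
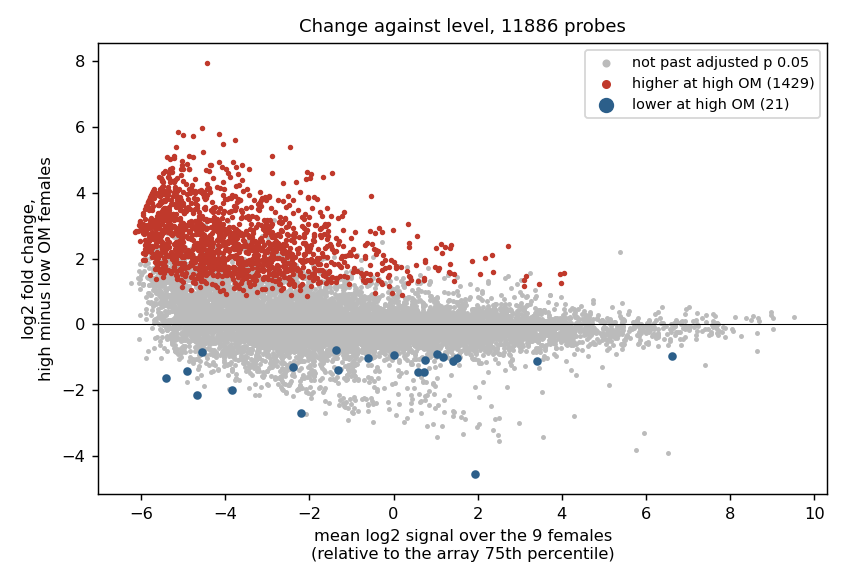
Log2 fold change, high minus low OM females (vertical), against the mean log2 signal over the 9 females (horizontal), 1 point per probe tested. Red points are the 1429 probes past the adjusted threshold and higher at high OM, which lie mostly at low signal (902 of them in the dimmest class), blue points the 21 lower ones, and grey points the rest.

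Among the 11674 tested probes measured on all 9 arrays, the 3 high OM females all lay above the 6 low OM females at 1551 probes and all below them at 163. Of the 1429 probes called higher, 1322 had no overlap between the groups, as had 17 of the 21 called lower. Over all tested probes, 13.05% lay above without overlap and 1.37% below, and 12.2% were called. Each order without overlap is 1 of the 84 splits of 3 against 6, so some probes fall in it by chance. The calls were chosen by the same difference between these fish, so their lack of overlap is a description.

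The share of probes called fell with brightness. In 4 equal classes by mean signal over the 9 arrays, the dimmest class held 902 higher and 5 lower calls (30.5% of its probes called) and the next class 382 higher and 2 lower (12.9%). In the third class 111 were higher and 4 lower (3.87%), and in the brightest 34 were higher and 10 lower (1.48%). The median log2 fold change of the dimmest class was 0.91 and that of the brightest was -0.12. After quantile normalization the dimmest class still held 548 of the higher calls, together with 185 lower ones, whereas normexp left 26 higher calls there and 33 in the brightest class.

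Detection among the 9 females leaned towards the high OM arrays at the strictest cut. At 320 probes (2.69% of those tested) the signal was well above background on all 3 high OM arrays and on none of the 6 low OM arrays, and no probe showed the reverse. These probes passed the filter through the high OM group and so had to differ, and 309 of them were among the 1429 called higher. A lower bound of the fold, high over low OM, was set for all 320 and exceeded 1 at 319. Its median over the 320 was 2.61-fold, with quartiles of 1.86 and 4.08, and at 83 it was at least 4-fold. The bound sets the mean of the 3 high OM fish against the mean, in the low OM fish, of the lowest signal well above background on each array or the probe's own signal where that was higher. In a wider cut, 852 probes (7.17% of those tested) were well above background in all 3 high OM and at most 2 low OM females. The 852 also needed the high OM arrays to pass the filter. In none of the high OM and at least 4 low OM females, 3 probes were well above background (0.0252%). At the widest cut, 1764 probes (14.8%) were so on all 3 high OM but not all 6 low OM arrays. The reverse, all 6 low OM but not all 3 high OM arrays, held at 472 (3.97%).

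By the rule for single probes, the largest rises among adjusted calls that were well above background on all 9 arrays and did not overlap were those of Ssa#DW589375 and Ssa#TC104727, and the largest falls those of Ssa#AM402527 and Ssa#TC108336. The files give no function for any of them.

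Probe Ssa#DW589375 stood at 1.37, 1.58 and 0.11 in high OM fish 3, 4 and 5, against -4.08, -3.90, -2.39, -4.78, -3.51 and -2.98 in low OM fish 1 to 6. The high OM fish were all above the array's 75th percentile and the low OM fish all far under it, with high OM fish 5 the lowest of its group. The means were 1.02 ± 0.80 (SD, n = 3) at high OM and -3.61 ± 0.84 (SD, n = 6) at low OM. The log2 fold change was thus 4.63 with a standard error of 0.52 (limma adjusted p = 0.000429), or 24.7-fold higher. The size depended on the background, since after normexp the log2 fold change was 2.35 (limma adjusted p = 0.000573).

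Probe Ssa#TC104727 gave 1.77, 1.55 and 1.46 in high OM fish 3, 4 and 5, against -3.31, -3.44, -2.46, -2.80, -3.62 and -2.28 in low OM fish 1 to 6. The 3 high OM fish lay close together and far from every low OM fish. The means were 1.60 ± 0.16 (SD, n = 3) at high OM and -2.99 ± 0.55 (SD, n = 6) at low OM, which gave a log2 fold change of 4.58 with a standard error of 0.34 (limma adjusted p = 8.04e-05). After normexp it was 2.66 (limma adjusted p = 5.63e-05).

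Probe Ssa#AM402527 fell at high OM, with -4.61, -4.06 and -3.32 in high OM fish 3, 4 and 5, against -1.66, -1.14, -0.80, -1.61, -1.45 and -1.19 in low OM fish 1 to 6. The groups did not overlap and the low OM fish were the more alike. The log2 fold change of -2.69 had a standard error of 0.33 (limma adjusted p = 0.00059) and came from means of -4.00 ± 0.65 (SD, n = 3) at high OM and -1.31 ± 0.32 (SD, n = 6) at low OM. After normexp it was -0.77 with a limma adjusted p of 0.132, and the call was lost. In the other groups of fish the mean of this probe ran from -3.5 in low IM females to -2.5 in low OM males. The low OM females thus stood above all other groups and the high OM females below them.

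Probe Ssa#TC108336 gave 0.52, -1.40 and 0.15 in high OM fish 3, 4 and 5, against 1.68, 0.76, 1.05, 1.14, 1.15 and 1.38 in low OM fish 1 to 6. High OM fish 4 was far below the other two. The log2 fold change of -1.44, with a standard error of 0.41 (limma adjusted p = 0.0435), rested on little, since the adjusted p ran from 0.0313 to 0.145 as each fish was left out, passing only without high OM fish 3, and without high OM fish 4 the log2 fold change was -0.86. It also lost the call after normexp (-0.98, adjusted p = 0.0803), quantile normalization (-1.37, 0.0559) and with the authors' values (-1.33, 0.07). The limma adjusted p was 0.203 with slide as a block, 0.181 with the replicate number as a block, 0.0578 with only probes well above background on all 9 arrays, 0.0538 with all 34 arrays in the fit and 0.0984 without moderation. The call held under median scaling (-1.83, limma adjusted p = 0.00623), without the filter on dim probes (0.0396) and with scan day as a block (0.049).

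**Figure D2:**
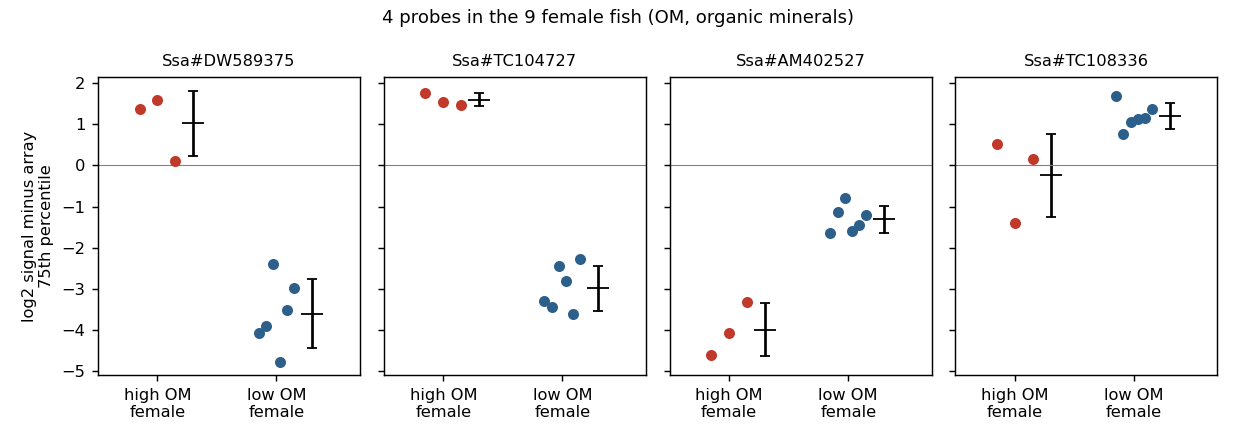
Log2 signal set against its array's 75th percentile (vertical) of the 4 named probes in the 3 high OM females (red, left) and the 6 low OM females (blue, right), 1 point per fish, with the mean and SD beside them. The groups do not overlap at any of the 4 probes, and at Ssa#TC108336 high OM fish 4 lies lowest at -1.40.

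The arrays of the groups also differed in the spread of their signal. The SD of the log2 signal over all probes was 2.98, 3.03 and 3.11 in high OM fish 3, 4 and 5, and in low OM fish 1 to 6 it was 3.46, 3.47, 3.23, 3.51, 3.39 and 3.14. All 3 high OM arrays were narrower than every low OM array, with means of 3.04 ± 0.07 (SD, n = 3) and 3.37 ± 0.15 (SD, n = 6). The 25th percentile lay -4.22 ± 0.26 (SD, n = 3) from the 75th at high OM and -5.42 ± 0.36 (SD, n = 6) at low OM. Both differences had an exact two-sided permutation p of 0.0238, the smallest that 84 splits of 3 against 6 allow, and 0.107 after adjustment over the 9 measures compared.

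Detection went the same way. On the high OM arrays 12790, 10707 and 12289 probes were well above background. On the low OM arrays 10172, 10246, 9836, 10843, 9883 and 11253 were. The groups overlapped (exact permutation p = 0.0714, and 0.161 after adjustment over the 9 measures). Between 795 and 1354 probes sat at the lowest signal on the high OM arrays and between 1490 and 2619 on the low OM arrays. The 75th percentile itself was 158 ± 59.0 intensity units (SD, n = 3) at high OM and 171 ± 56.5 (SD, n = 6) at low OM (exact permutation p = 0.714). With this spread and so few arrays, the test cannot show that the groups were alike. Spots of the control probe E1A exceeded the negative controls by 6.12 ± 1.45 intensity units (SD, n = 3) at high OM and by 2.94 ± 2.92 (SD, n = 6) at low OM (exact permutation p = 0.143). This p was 0.257 after adjustment over the 9 measures. Without low OM fish 6 the difference was 4.35 and its exact permutation p was 0.0357, the smallest that 3 against 5 fish allow. With each fish left out in turn this unadjusted p ran from 0.0357 to 0.357. Whether added RNA gave the E1A signal was not tested. The part of these array differences in the calls was not tested.

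**Figure D3:**
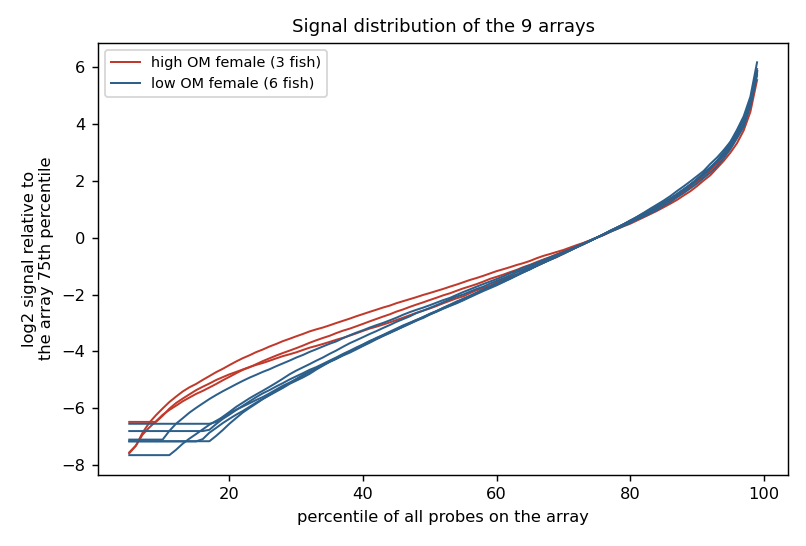
Log2 signal set against its array's 75th percentile (vertical) at each percentile of all probes (horizontal), 1 line per array, for the 3 high OM females (red) and the 6 low OM females (blue). The lines meet at 75 by construction, the high OM lines lie higher at the 25th percentile, by 1.19 on the log2 scale on average, and flat stretches at the left are probes at the lowest signal.

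Slides and scan days were shared in part. High OM fish 3 and 4 lay on slide 2 with low OM fish 3 and 4, high OM fish 5 lay on slide 7 with low OM fish 6, and low OM fish 1 and 2 (slide 1) and 5 (slide 3) had no high OM fish beside them. In the fit with slide as a block, 753 probes were higher and 10 lower after adjustment, and of the 211 probes that held under all 5 ways of making the values, 173 passed this too. Within slide 2 alone, 2 fish against 2, limma called 0 probes once p was adjusted, while 2747 had p under 0.05 before that. On scan day 1 alone 1595 were higher and 172 lower. Slide 7 held 1 fish of each group and allowed no test. The 1429 probes called higher had a median difference, high minus low, of 2.58 on slide 2, beside 0.17 over all tested probes, and of 1.63 on slide 7, beside 0.02, and on slide 7 high OM fish 5 lay above low OM fish 6 at 1402 of them. These fish also entered the choice of the list, so the values are a description.

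Single fish shaped part of the lists. High OM fish 4 lay over 3 log2 units, or 8-fold, below both other high OM fish at 225 probes, where the other 8 females each did so, within their group, at 1 to 13. Over these 225 probes its median was -6.02, against -1.96 to 0.88 on the other 33 arrays, and 37 of them were well above background in it. They held 56 of the 272 lower DEG but 1 of the 21 adjusted lower calls, and without this fish 98 lower DEG were counted. Low OM fish 6 lay over 3 log2 units above the other 5 low OM fish at 96 probes, where each of the other 8 females lay so far above its group at 0 to 12. Without it, 1755 probes were higher and 37 lower after adjustment. Without high OM fish 3, 848 were higher and 76 lower.

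The responses at the called probes were set against those in males and in fish fed inorganic minerals. The difference of the OM response between females and males passed the limma adjustment at 1618 of 13576 probes (11.9%), 1382 with the higher response in females (10.2%) and 236 with the lower (1.74%). Of the 1429 probes called higher in females, 831 were among the 1382. These comparisons share the female arrays with the comparison that chose the list, so the count is a description. Over the 1429 probes the median log2 fold change, high minus low, was 2.46 in OM females and -0.49 in OM males, beside medians over all tested probes of 0.05 and -0.06. The OM response in males itself passed at 932 probes (6.87%).

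One male weighed on these values. Low OM male 6 had a median log2 signal of -1.42 over the 1429 probes, above all 3 high OM females. Its label was kept, with no test of whether the sample was exchanged. Its array shared the narrow signal of the high OM females, with an SD of 2.80 and a 25th percentile at -3.66. E1A exceeded the negative controls by 16.65 intensity units on it. On the other 24 arrays outside the 9 females, the SD was at least 3.08, in low IM male 5. This E1A excess was at most 9.34 on them. Whether this spread bears on the signal of the 1429 probes was not tested. Without low OM male 6 the median log2 fold change in OM males was 0.19 and the difference between the sexes passed at 1492 probes. A separate fit took the male OM arrays only, over the 11886 probes tested in females. It gave 385 higher and 463 lower with this male, and 240 higher and 335 lower without it. The difference between the sexes was lost in 2 alternatives: with slide as a block 0 probes passed the limma adjustment (2679 had p under 0.05 before it), and after normexp 0 passed (1745 before it). It passed at 415 probes without high OM female 3. Slides 1 and 2 held females only and slides 4, 5 and 6 males only.

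In females the OM and IM responses differed at 1071 of 12490 probes (8.57%). The OM response exceeded the IM response at 1060 of 12490 probes (8.49%) and fell short of it at 11 (0.0881%) after the limma adjustment, of which 907 were among the 1429. The median log2 fold change of the 1429 probes was 2.46 in OM females and -0.05 in IM females. The IM response in females itself passed at 1 probe (0.00801%). With slide as a block the difference between the sources passed at 830 probes, and after normexp at 7. Among the named probes Ssa#DW589375 rose most. It was chosen for its rise in these same female arrays, so its differences are a description. Its response was higher in OM females than in OM males by 5.33 on the log2 scale (standard error 1.08) and higher than in IM females by 5.25 (standard error 0.72).

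Across all 34 fish, the median log2 signal of the 1429 probes was -1.62, -2.78 and -2.34 in high OM females 3, 4 and 5, and -5.18 to -4.01 in low OM females. On the other 25 arrays it ran from -5.57 to -1.42, with low OM male 6 at -1.42 and low IM male 5 at -3.19, and from -5.57 to -4.24 without those 2. The 3 high OM females thus stood above every other array but that of low OM male 6, and the low OM females fell within the range of the rest. Of the 320 probes seen in all high OM and no low OM females, between 4 and 313 were well above background on each of the other 25 arrays, with a median of 56, and the 2 arrays with most were low OM males 6 (313) and 4 (291).

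**Figure D4:**
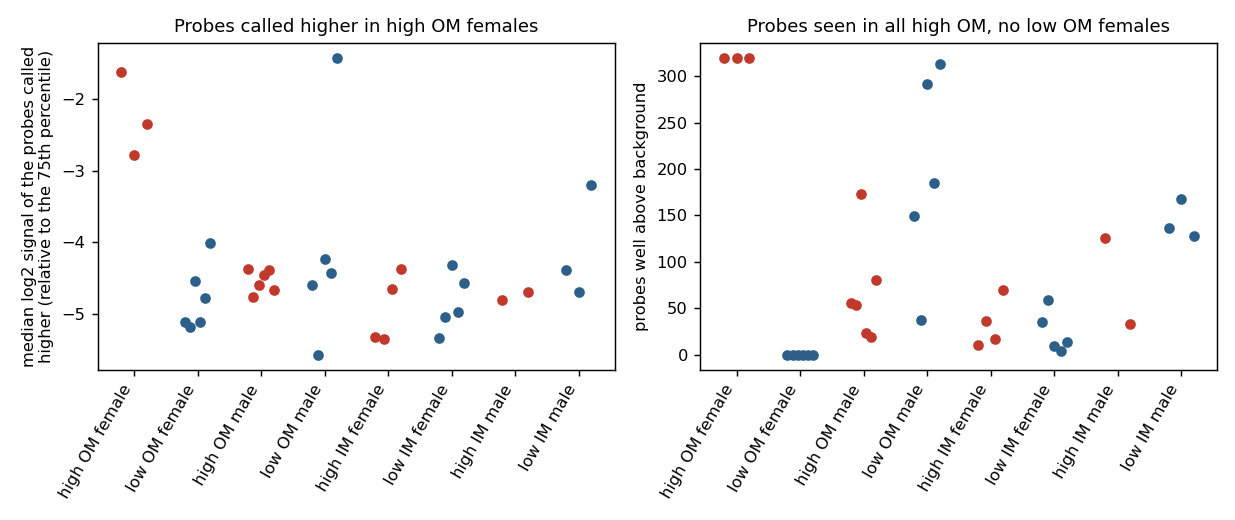
Left, median log2 signal of the 1429 probes called higher in high OM females, relative to the array's 75th percentile. Right, how many of the 320 probes well above background in all 3 high OM and no low OM females were so in each fish. Each point is 1 of the 34 fish (red high, blue low level), and low OM male 6 lies beside the high OM females in both panels, at -1.42 and 313. Both lists were chosen from the OM females themselves.

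The probes called higher were spread unevenly over the identifier series of the array, taken here only as the letters that open each identifier. Probes starting with Ssa#GRASP were called higher in 39 of 2963 cases (1.32%), against 12.0% of all probes. For Ssa#S the count was 398 of 4423 (9.0%). Higher shares were found for Ssa#DW, with 154 of 483 (31.9%), Ssa#DY, with 129 of 411 (31.4%), and Omy#CA, with 44 of 114 (38.6%). The series also differ in brightness, the median probe of Ssa#GRASP lying at 0.34 and that of Ssa#DW at -3.77 in low OM females. Within the dimmest of the 4 brightness classes 10.4% of Ssa#GRASP probes and 41.5% of Ssa#DW probes were called higher, beside 30.4% of all probes in that class, and in the next class the shares were 1.87% and 30.7%, beside 12.9%.

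**Figure D5:**
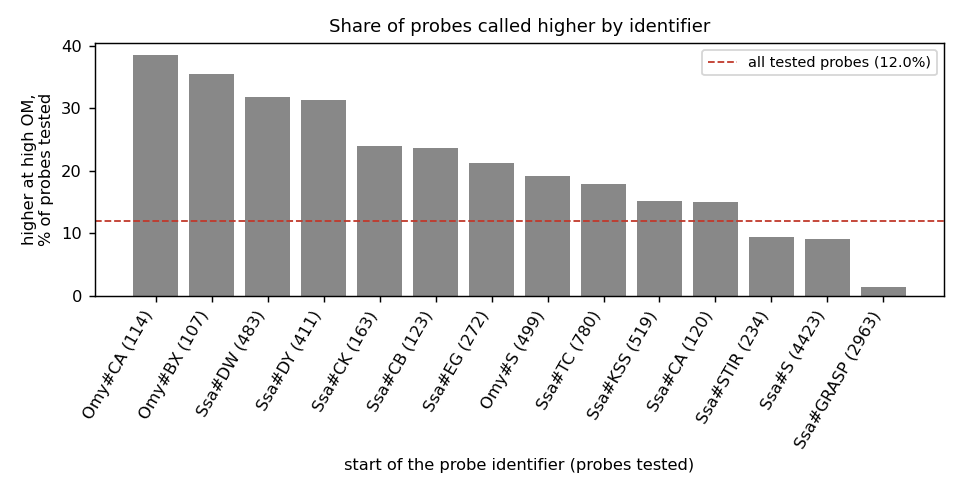
Percent of tested probes called higher at high OM in females (vertical, limma adjusted p under 0.05) by the start of the probe identifier (horizontal, number of probes tested in brackets, series of at least 100). The dashed line is the 12.0% of all tested probes, and Ssa#GRASP lies lowest at 1.32%.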

How the data were processed

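Midgut RNA was hybridised to one-colour (Cy3) arrays, 1 fish per array. The authors deposited intensity values per spot, read by Agilent Feature Extraction 12.0.1.1, which had subtracted the background without scaling between arrays. The authors also deposited a table of processed intensity values. Groups came from the labels. Members, lists and rules were chosen with earlier results of these data known. The labels and the paper name different RNA extraction kits.

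Processed signals were put on a log2 scale, and the 75th percentile of the array was subtracted. Control spots and 228 spots marked as outliers on the 9 arrays were left out, and 0 were saturated. The 9 arrays were fitted with limma 3.58.1 (R 4.3.3), with moderated variances and no covariates. The fits of the differences took the 20 OM arrays and the 18 female arrays. Array measures were compared by exact permutation (scipy 1.17.1). The fit was tested on simulated data. The named probes were the 2 largest rises and falls among adjusted calls that were well above background on all 9 arrays with no overlap. Gene lists and cell type markers were not used, as no probe could be named. The spike-in slope was not obtained, and normexp (offset 50) used the median brightness. The number of arrays and the brightness limit precision. Pearson r between any pair of the 9 arrays was at least 0.833. Among the 3 high OM arrays it ran from 0.891 to 0.934, and between a high and a low OM array it reached 0.932. Alternatives were the median as scale, normexp, quantile normalization, the authors' values, other filters, slide, scan day or fish number as a block, all 34 arrays, no moderation and each fish left out.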

Additional observations from a re-analysis of the deposited data

Results flagged for a closer look

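Low OM female 6 lay apart from the other 5 low OM females on 3 measures of the array. Its 25th percentile lay at -4.72 relative to the 75th, with the next fish at -5.38. E1A stood 16.7 intensity units above the local background, with the next at 7.70, and E1A minus the negative controls was 8.81, with the next at 2.48. Chance alone marks about 1 in 20 groups in this way, and 3 of the 22 groups of values screened were marked. All 3 marks came from the array of low OM female 6, and both E1A measures use the same spots. The marks are therefore not independent and cannot be set against that rate.

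The response to the mineral level differed between groups of fish by limma's test of the difference, at 1618 probes between OM females and OM males and at 1071 between OM and IM females. The sex difference passed at 0 probes with slide as a block and at 0 after normexp. The named probes were chosen for their change in the same female arrays, so their differences are given as a description. The female minus male difference was 5.33 on the log2 scale for Ssa#DW589375 and 5.55 for Ssa#TC104727, and 4.40 and 4.49 without low OM male 6, whose label was kept untested. The adjusted calls of both were lost with slide as a block and after normexp. The OM minus IM difference in females was 5.25 for Ssa#DW589375, 5.38 for Ssa#TC104727 and -3.22 for Ssa#AM402527.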

How the results depend on the processing

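The 2404 DEG became 607 after normexp and 1003 with only probes well above background on all 9 arrays (8552 tested). The 1450 adjusted calls became 239 after normexp, 881 with the authors' values, 413 with the stricter filter, 763 with the slide as a block and, in comparisons added after seeing the data, 0 within slide 2 (2747 at an unadjusted p under 0.05) and 1767 on scan day 1. The deviations of each fish from its own group mean were correlated between high and low OM females, over the probes measured on all 9 arrays. Pairs with the same fish number had r = 0.298, -0.034 and 0.156 for fish 3, 4 and 5. The pairs of fish 3 and of fish 4 each shared slide 2. Pairs with different numbers ran from -0.266 to 0.08, so 0.298 and 0.156 lay above that range and -0.034 within it. Whether the fish number pairs the fish was not tested. The replicate block gave 1290 adjusted calls and 2501 DEG. With each fish left out in turn the DEG ran from 2159 to 2763 and the adjusted calls from 924 (without high OM female 3) to 1792 (without low OM female 6).

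The median log2 fold change of 0.05 became -0.35 with median scaling, -0.12 after quantile normalization, -0.043 with the stricter filter, 0.12 without a filter, 0.17 on slide 2 and 0.12 on scan day 1, and ran from 0.01 to 0.11 with fish left out. The sex difference (1618) became 0 after normexp and with the slide as a block, 175 with the authors' values and 429 with the stricter filter, and ran from 415 to 1951. The source difference in females (1071) became 7, 443 and 170 after normexp, with the authors' values and with the stricter filter, 376 with all 34 arrays in the fit, and ran from 535 to 1239. After normexp the classes from the dimmest held 26, 108 and 70 calls, and the brightest kept its side.

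With fish left out, the difference (high minus low) in the 75th percentile ran from -30.7 to 21.6 (21.6 without high OM female 4, 1.44 without low OM female 6), the negative controls from -0.632 to 0.682 (0.321 without high OM female 4, 0.147 and 0.682 without low OM females 5 and 6), E1A from 1.92 to 5.04 and E1A minus the negative controls from 2.35 to 4.35 (both highest without low OM female 6, each with an exact permutation p of 0.0357), the SD from -0.37 to -0.29 and the 25th percentile from 1.05 to 1.33. The exact permutation p of the last 2 was 0.0714 at most, the smallest possible with 2 high OM fish. That of E1A ran up to 0.571 and that of E1A minus the negative controls up to 0.357. The cause of these shifts was not tested. Within slide 2 the adjusted p of Ssa#DW589375, Ssa#TC104727 and Ssa#AM402527 was 0.051.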
